A study of Homo sapiens with 30 samples.

Results

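In LNCaP cells, 445 spans of open chromatin were listed at 10 nM R1881 in all 3 libraries and in none of the 12 libraries from vehicle, 0.03, 0.06 or 0.1 nM. They were chosen from the 90005 unique spans among the 100000 strongest entries of the LNCaP 10 nM replicate 3 list, ranked by the peak caller's −log10 p. A member had to overlap one of the 100000 strongest entries of 10 nM replicates 4 and 5. No entry of any strength could overlap it in the other 12 LNCaP lists. Of the 603 spans that met these steps, 158 were removed because they had an entry in all 3 VCaP 10 nM lists and in no VCaP vehicle list, which left the 445. The LNCaP listing and strength of the members, and their VCaP 10 nM and vehicle listing, were therefore used to choose them and are given as a description, from which no test is read.

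The study measured chromatin accessibility by ATAC-seq with the OMNI protocol in 2 established human prostate cancer cell lines, asking how low and high androgen doses differ. LNCaP cells received 0.03, 0.06, 0.1 or 10 nM R1881 or vehicle, with 3 libraries per group numbered 3, 4 and 5. VCaP cells received 0.01, 0.03, 0.06 or 10 nM R1881 or vehicle, with 3 libraries per group numbered 1, 2 and 4. All 30 libraries, vehicle included, came from cells kept for 48 h in medium with 8% charcoal-treated serum before 24 h of treatment.

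Androgens change transcription in prostate cells through regulatory elements in DNA. R1881, also called methyltrienolone, is a synthetic androgen that is slowly metabolised, and charcoal treatment removes most steroid hormone from serum. Many elements that respond to androgen lie in introns or between genes, where factors such as FOXA1 and HOXB13 bind as well. In ATAC-seq a transposase inserts adapters into DNA that is not packed in nucleosomes, so a listed span is one where insertions piled up above the local background.

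Each list ended at a −log10 p of 2, and an entry needed a minimum width. The smallest width in a list was 186 to 219 bp over the 15 LNCaP lists and 151 to 293 bp over the 15 VCaP lists. The lists held no read counts, but the height of the pileup could be solved from the deposited columns as whole numbers. The library background pileup was 3.06 to 5.26 in LNCaP and 1.09 to 2.74 in VCaP, so VCaP was covered less deeply. By calculation from a Poisson model, the smallest pileup that could reach the −log10 p limit at that background was 8 to 11 in LNCaP. Luminal marker genes had an entry within 1 kb of a gene end for 6 of 6 genes in every library of both lines. Of 3 markers each, basal genes had 0 to 3, stromal genes 2 to 3 and immune genes 1 to 3 in LNCaP.

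Of the 445 members, 4 overlapped the window from 250 bases before to 50 bases after a gene start in the RefSeq table, and no member overlapped a miRNA hairpin. The overlapped parts at LINC02997 and ELOF1 are printed because they are a whole window at a noncoding start and the stretch at a protein-coding start, and so show what bases a member at a start can hold. They come from RefSeq, build GRCh38.p14. The LINC02997 stretch is chr5:67792963-67793262 on the plus strand, 300 bases, within a member at chr5:67792941-67793275. The ELOF1 stretch is chr19:11555468-11555698 on the minus strand, 231 bases before a start that lies 3.76 kb inside the annotated gene body, within a member at chr19:11555336-11555698. Both are written 5′ to 3′, and capitals mark a match to the GATA motif AGATAA.
LINC02997: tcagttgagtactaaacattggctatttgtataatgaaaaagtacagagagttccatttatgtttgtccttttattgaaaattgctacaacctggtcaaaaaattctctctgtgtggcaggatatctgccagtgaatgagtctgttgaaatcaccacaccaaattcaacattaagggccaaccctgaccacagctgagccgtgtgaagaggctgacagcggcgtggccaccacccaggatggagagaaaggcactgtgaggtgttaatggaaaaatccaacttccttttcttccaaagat
ELOF1: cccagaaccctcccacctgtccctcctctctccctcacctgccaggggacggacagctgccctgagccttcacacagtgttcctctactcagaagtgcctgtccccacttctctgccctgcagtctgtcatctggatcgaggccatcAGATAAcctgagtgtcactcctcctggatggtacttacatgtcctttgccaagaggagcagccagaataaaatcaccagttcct
The other 2 windows belonged to SMIM41-AS1 and LOC105376208, both noncoding. ELOF1 encodes a transcription elongation factor of RNA polymerase II. On both strands of the 4 windows, the GATA letters AGATAA were in 1, against 10.3% of all 34961 windows of 300 bases. A forkhead match, TGTTTAC or TATTTAC, was in the LOC105376208 window outside the bases shared with the member, and 5.97% of all windows held one. These letters describe 4 windows, and no sequence was used for members that overlap no start window.

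The members were what remained after a stepwise loss of spans with rising dose. Of 75306 spans among the strongest in all 3 libraries at 10 nM, 9331 had no entry in the 3 vehicle lists. The 0.03 nM lists then left 4895, the 0.06 nM lists 1681 and the 0.1 nM lists 603. Of the 9331 spans gained over vehicle, the 0.03 nM libraries listed 33.0%, 21.9% and 27.8% in replicates 3, 4 and 5. The 0.06 nM libraries listed 53.2%, 56.3% and 73.2%, and the 0.1 nM libraries listed 70.3%, 71.4% and 87.1%. The 3 dose groups did not overlap except that 0.06 nM replicate 5 lay above 0.1 nM replicates 3 and 4. At 0.06 and 0.1 nM the highest share was that of replicate 5, the longest list of each group (214061 and 210852 entries). All these spans were chosen by their listing at 10 nM and with vehicle, and shares over all spans are not given. The part of list length in the shares was not tested. At the other end, 873 of the 9331 spans were listed in all 9 low-dose libraries, and 603 in none of them.

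**Figure D1:**
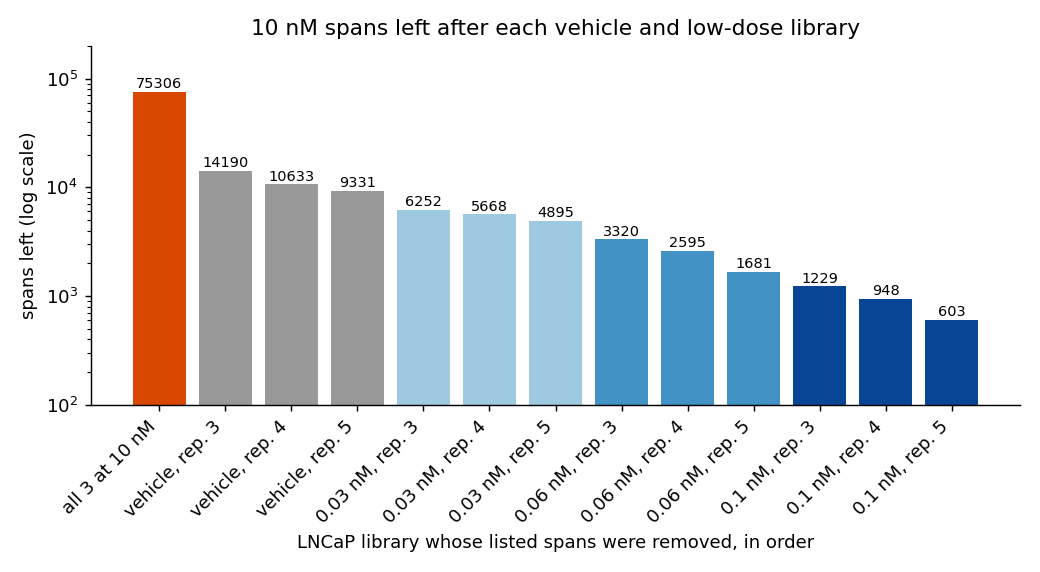
Number of spans (log axis) left after all 3 LNCaP libraries at 10 nM and after each vehicle and low-dose library in turn, with bars coloured by dose. The count falls to 9331 after the vehicle libraries and to 603 after 0.1 nM replicate 5.

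The last steps rested on single libraries. Another 646 spans failed the rule through an entry in exactly 1 of the 12 vehicle and low-dose lists, and 345 of these were in 0.1 nM replicate 5, 113 in 0.1 nM replicate 4 and 77 in 0.1 nM replicate 3. That single entry had a median −log10 p of 6.39, and the weakest ones were 2.04 at chr6:14394135-14394740, with no protein-coding gene within 100 kb, and 2.06 near both PRLR, the prolactin receptor gene, and FBXO4. The 0.1 nM replicate 5 list was among the longest, with 210852 entries and a background pileup of 5.05, against 141545 and 166721 entries and backgrounds of 3.12 and 4.58 in 0.1 nM replicates 3 and 4. Without it the rule gave 732 spans. The 10 nM lists held 166735, 218183 and 223139 entries. Within each replicate number the 10 nM list was the longest, but the replicate 3 list at 10 nM was shorter than that of 0.1 nM replicate 5. The part of list length in the member count was not tested. On the strength side, the lowest members lay at −log10 p 10.09 near WLS and PRSS23 and 10.1 near PCNX2. The nearest spans below the limit, near PCSK2, RIPPLY3 and ERC2, had 10.09 each, and 78 spans below it met every other step.

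Applied to every dose group in turn without the VCaP step, the same listing rule gave 603, 583 and 594 spans at 10 nM in LNCaP, depending on which replicate supplied the spans. It gave 0 in each of the 9 low-dose libraries of LNCaP and 1, 2 and 2 with vehicle. In VCaP it gave 621, 643 and 619 at 10 nM. The VCaP low-dose groups gave 1 to 6 and VCaP vehicle 12, 17 and 13. In both lines 10 nM was thus the group with the most spans of its own. The next lower dose was 0.1 nM in LNCaP and 0.06 nM in VCaP, so the gap below 10 nM was the widest between doses of either line.

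**Figure D2:**
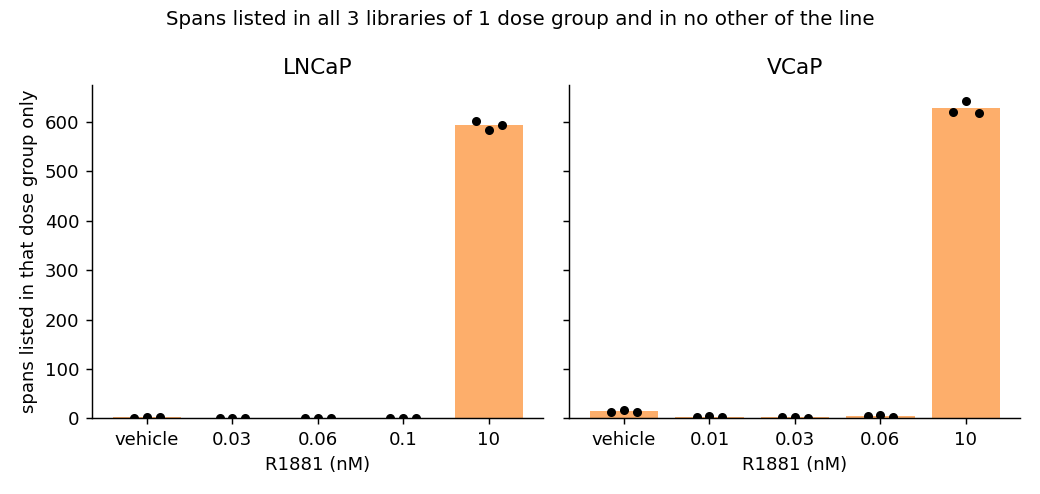
Number of spans listed in all 3 libraries of 1 dose group and in none of the other 12 of the same line, by R1881 dose. Points are the 3 replicates that can supply the spans and bars their mean. The 10 nM groups lie between 583 and 643 and all the others at 17 or below.

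At 10 nM the members were of middling to low strength. Their −log10 p had a median of 20.4, 27.4 and 25.03 in replicates 3, 4 and 5, and 38.6, 52.7 and 45.6 over the 90005, 89264 and 89161 of all spans that had an entry in that library. Spans with no vehicle entry but listed in all 9 low-dose libraries stood higher, at 61.7, 69.4 and 58.9. The fold enrichment over background, as the peak caller gave it, had a median of 6.52, 7.04 and 7.22 for the members. Their summit pileup had a median of 36, 49 and 42 and was never below 22, 34 and 29. The limit of the rule sets these lowest values. Across the 445 members, Spearman's rho between ranks in pairs of 10 nM libraries was 0.414 for replicates 3 and 4, 0.480 for 3 and 5 and 0.548 for 4 and 5. These points share the requirement to be strong in all 3 libraries, which narrows their range.

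The member of highest mean percentile rank lay in FRYL, a gene related to the Drosophila furry gene, at chr4:48754743-48755266. Its −log10 p was 86.8, 54.1 and 54.3 in 10 nM replicates 3, 4 and 5, and its summit pileup 95, 73 and 67. Among the 12 of highest mean rank it was the highest in replicate 3 and not in replicates 4 and 5. By mean −log10 p of the strongest overlapping entry, members near GCFC2 and KDELR2, named after their values were seen, stood higher. They had 14.1, 234 and 20.4 and 10.6, 142 and 73.0 in replicates 3, 4 and 5, led in both by replicate 4. The replicate 4 entry at GCFC2 was 2131 bp wide, against 252 bp for the member and 400 bp in replicate 5. Whether its summit lay in the member was not examined. FRYL held a second member at chr4:48686995-48687438, with a −log10 p of 25.3, 26.4 and 28.1.
Among the 12 members of highest mean rank, 5 had no protein-coding gene within 100 kb. One of these, at chr5:103724141-103724567, had a −log10 p of 50.7, 59.7 and 70.1. The others were at chr5:40238404-40238748, chr9:101967644-101967918, chr13:82353973-82354289 and chr13:39913888-39914503, with mean −log10 p of 56.8 ± 19.2, 56.0 ± 7.69, 55.3 ± 20.4 and 52.4 ± 4.71 (SD, n = 3). The span on chromosome 13 at 82353973 lay 1528100 bp from the nearest start of a protein-coding gene.
KDM4C encodes a histone lysine demethylase. Its member, in the gene body at chr9:7111429-7111906, had a −log10 p of 59.8, 46.0 and 48.8. PCDH15, a protocadherin gene of hair cells, held one at chr10:54091321-54091528 with 44.8, 57.3 and 56.3. AP3B1, which encodes a subunit of the AP-3 adaptor of vesicle transport, held one at chr5:78207910-78208499 with 55.5, 52.7 and 44.4. These 3 were similar in all 3 libraries at 10 nM. SPOCK3, a proteoglycan gene, held one at chr4:167227787-167228184 with 43.6, 62.0 and 47.9.
VAC14 and CEP44 differed from the rest. VAC14 encodes the scaffold of a lipid kinase complex of endosomes, and its member at chr16:70694069-70694287 had a −log10 p of 25.5, 74.5 and 75.3. Its summit pileup was 78, 164 and 157 over a local background of 18.0, 25.6 and 22.9, well above the library background of 4.06, 5.10 and 4.13. CEP44 encodes a centrosomal protein, and the member nearest to it, 67.5 kb outside the gene at chr4:174400884-174401103, had a pileup of 147, 129 and 129 over a local background of 21.1, 30.7 and 22.4. In replicate 3, which supplied the spans, both were narrow, at 219 and 220 bp, in places where the surrounding signal was high. The overlapping entries in replicates 4 and 5 were 683 and 673 bp wide at VAC14 and 347 and 366 bp at CEP44.

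**Figure D3:**
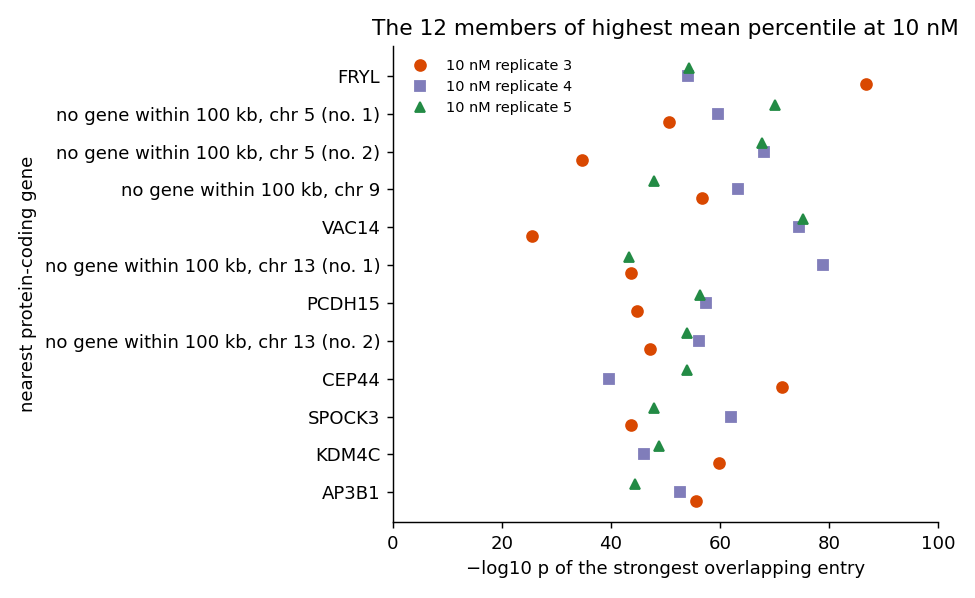
−log10 p at each of the 12 members of highest mean rank in the 3 LNCaP 10 nM libraries, in rank order from the top and labelled by the nearest protein-coding gene within 100 kb. FRYL is the highest in replicate 3, and VAC14 is low in replicate 3.

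The members were spread thinly over the genome. The 350 with a protein-coding gene within 100 kb were nearest to 340 genes, of which 330 had 1 member and 10 had 2. The 6 listed first were CAMK1D, EHMT1, EPHA7, FGD6, FRYL and MED13L. CAMK1D encodes a calcium-dependent kinase, and its members at chr10:12611793-12612578 and chr10:12687900-12688235 had mean −log10 p of 27.2 ± 7.34 and 20.2 ± 3.90 (SD, n = 3). EHMT1, a histone methyltransferase gene, held members at chr9:137704063-137704453 and chr9:137756074-137756408, with means of 43.7 ± 16.2 and 26.1 ± 6.04. EPHA7, an ephrin receptor gene, had 2 members outside its body, 28.8 and 2.24 kb away, with means of 26.5 ± 10.5 and 17.1 ± 5.71. FGD6, an exchange factor gene for small GTPases, had means of 28.5 ± 5.83 and 17.9 ± 6.44, and MED13L, a Mediator subunit gene, 20.6 ± 2.91 and 19.1 ± 4.35. Whether of the same gene or not, members were seldom close together: 0 of 445 had another member within 10 kb, 6 within 50 kb and 20 within 100 kb.

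Few members lay at starts of protein-coding genes, the only starts used for distances. Leaving out chromosome 8, whose starts were not used, 6 of 427 members (1.41%) were within 1 kb of one. That share was 12.9% over 85512 spans. The spans listed from the lowest dose on had 1.33%. Members lay a median of 65.0 kb from a start, against 43.1 kb for all spans and 70.7 kb for those listed from the lowest dose on. Of the 445, 53.9% were inside a gene body and 21.3% had no gene body within 100 kb, against 59.1% and 14.2% of all spans. By chromosome, 8.54% of members were on chromosome 6 and 8.76% on chromosome 3, against 5.74% and 7.15% of all spans. The spans listed from the lowest dose on had 6.76% and 6.99% on these chromosomes. Chromosomes 17 and 19, which are rich in genes, held 0.899% and 1.12% of members, against 3.77% and 2.76% of all spans. Low shares there were not particular to the members, since the spans listed from the lowest dose on had 1.60% and 0.802%. The 158 spans removed in the VCaP step had 3.16% and 1.27%.

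The members were also narrow in 10 nM replicate 3, whose entries give all widths here. Their median width was 350 bp, with a range of 207 to 1303 bp, against a median of 644 bp over all spans and 666 bp for those listed from the lowest dose on. Overlapping entries of replicates 4 and 5 could be wider or narrower. At the MSH4 member of 246 bp they were 1024 and 786 bp, and at the NEK7 member of 714 bp they were 326 and 319 bp. Of the members, 93 (20.9%) were at most 250 bp wide, against 2.96% of all spans and 0.115% of those listed from the lowest dose on. A narrow span has fewer bases that another list's entry can overlap, and lists omit entries under their smallest width. The part of width in passing the rule was not tested. With a width of at least 300 bp required, 287 members were left. Most members had 1 summit, 432 of 445. An entry of a vehicle or low-dose list lay a median of 2.89 kb away, within 1 kb of 76 members and more than 10 kb from 53. With none allowed within 1 kb, 369 members were left. A group of 58 members had a local background over 2 times the library background. They had a median width of 289 bp and a median pileup of 72, against 361 bp and 35 for the other 387. Their median distance to a protein-coding gene start was 25.4 kb, against 80.2 kb.

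**Figure D4:**
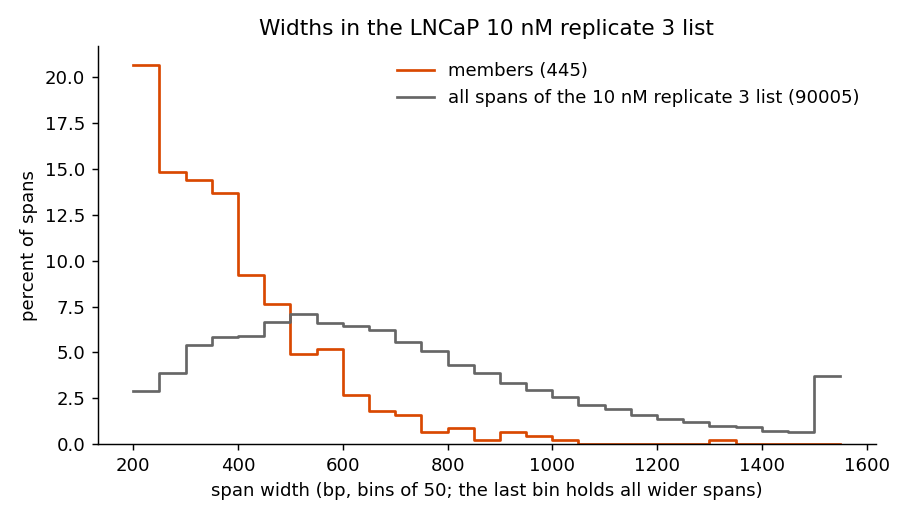
Distribution of span widths in bins of 50 bp, as percent of the 445 members and of all 90005 spans of the LNCaP 10 nM replicate 3 list. The last bin holds all wider spans. Members crowd at the narrow end, with 20.9% at most 250 bp wide, against 2.96% of all spans.

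Few genes of the lists examined were nearest to a member, as were few genes overall. Of 16981 protein-coding genes nearest to a span, 340 (2.002%) were nearest to a member. Among androgen-induced genes the count was 1 of 51, which was HPGD, and among androgen-repressed genes 1 of 18, which was MET. Neuroendocrine markers had 1 of 11, which was SCG2. Another 14 lists had 0, among them 36 nuclear receptor genes, 35 luminal and pioneer factor genes, 32 lipid and sterol genes, 49 cell cycle genes, 20 glucocorticoid receptor targets and 21 genes of androgen synthesis and inactivation. With 2.002% as the share over all genes and lists this short, nothing is read from these counts.
HPGD encodes the dehydrogenase that inactivates prostaglandins. Its member lay in the gene 1.54 kb from a start, at chr4:174520482-174520946, with a −log10 p of 30.2, 26.3 and 38.7. Its local background was 8.99, 12.9 and 9.39, over 2 times the library background in each library. No VCaP list had an entry there.
MET encodes the receptor of hepatocyte growth factor. Its member at chr7:116725491-116725845, inside the gene, had a −log10 p of 29.4, 41.6 and 29.1 and no VCaP entry. SCG2 encodes secretogranin, a protein of secretory granules, and the member 40.9 kb from it at chr2:223643256-223643583 had 23.3, 35.9 and 27.0. At SCG2, 2 of 3 VCaP 10 nM lists and 2 of the 9 VCaP low-dose lists also had an entry.

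In the deposited VCaP lists, 235 of the 445 had an entry in at least 1 of the 15 libraries and 210 in none. By the rule a member could be listed in all 3 VCaP 10 nM libraries only with a VCaP vehicle entry, and 39 were. Another 90 had 2 of the 3 VCaP 10 nM entries and no vehicle entry, and so missed removal by 1 library. The 9 VCaP low-dose libraries had no part in the rule: 327 members had an entry in none of them, 51 in 1 and 8 in all 9.

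With every VCaP list shortened to the 104726 strongest entries, the share of members listed was 6.07%, 2.25% and 5.84% in VCaP 0.01 nM replicates 1, 2 and 4. It was 8.31%, 3.37% and 7.42% at 0.03 nM and 15.1%, 7.19% and 12.8% at 0.06 nM. The dose groups overlapped because replicate 2 was the lowest of each. Within each replicate number, the share was higher at each higher dose. The share of all other spans also rose with each dose in replicate 1 (61.9%, 62.0% and 64.7%) and replicate 2 (42.9%, 43.1% and 52.6%). In replicate 4 it was 58.1%, 55.0% and 62.0%. Over the 9 libraries, Pearson's r between the member share and the order of the doses was 0.733 (exact permutation test, two-sided, p = 0.0262). Spearman's rho was 0.738 (exact permutation p = 0.0369). Adjusted over the 4 relations computed, neither passed, with adjusted p of 0.105 and 0.148 by exact permutation. The lowest r after leaving out 2 of the libraries farthest from the middle dose was 0.457 and the highest 0.859, over 15 choices. With the replicate number as a block, whose pairing was checked between 0.06 and 0.01 nM, r was 0.931 and passed, with an exact permutation p of 0.00926 and an adjusted p of 0.0370. That p is the smallest the 216 orders can give.
The same blocked relation was 0.699 for the share of all other spans (adjusted exact permutation p = 0.0833), 0.698 for list length (adjusted exact permutation p = 0.0833) and 0.891 for the background pileup (adjusted exact permutation p = 0.0556). The background pileup thus also had a high r with dose within replicate numbers, and the part of depth in the member share was not tested. Taken relative to the share of other spans, the member share had an r of 0.807 without the block (exact permutation p = 0.00833, adjusted p = 0.0333). With only the members of at least 300 bp r was 0.734, and with only the 394 members that had no VCaP vehicle entry it was 0.725, with adjusted exact permutation p of 0.0762 and 0.0619.
For orientation, the mean share of members listed was 5.09 ± 0.722% with vehicle, 4.72 ± 2.14% at 0.01 nM, 6.37 ± 2.63% at 0.03 nM, 11.7 ± 4.05% at 0.06 nM and 26.0 ± 7.20% at 10 nM (SD, n = 3 each). The vehicle and 10 nM values were used by the rule. All other spans were at 53.4 ± 7.22%, 54.3 ± 10.0%, 53.4 ± 9.56%, 59.8 ± 6.39% and 61.7 ± 5.26%. The 873 spans listed in LNCaP from the lowest dose on were at 21.1%, 32.7%, 40.7%, 55.9% and 65.3%. The 158 removed spans, for which the rule required VCaP 10 nM entries and no vehicle entry, were at 4.43%, 12.03% and 39.5% at 0.01, 0.03 and 0.06 nM.

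**Figure D5:**
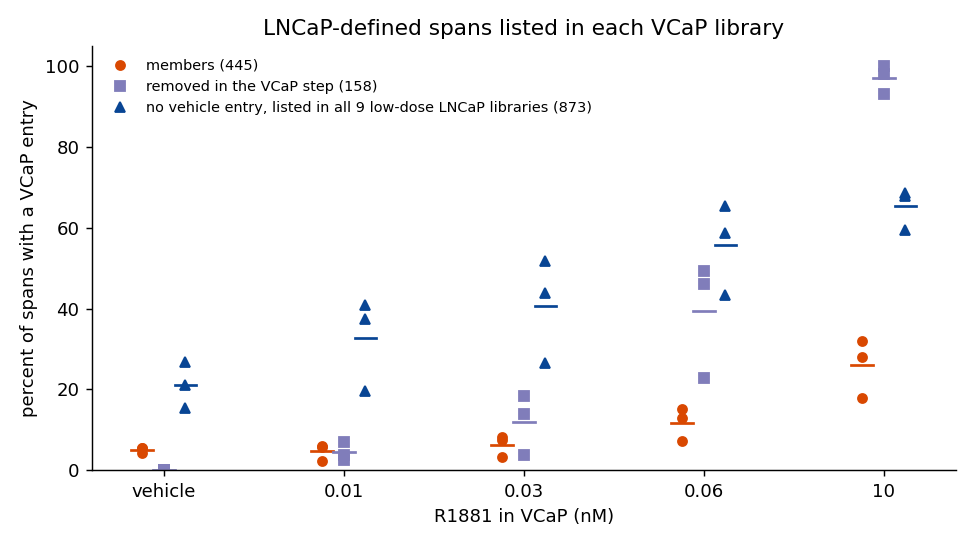
Percent of spans listed in each VCaP library, all lists cut to the same length, by R1881 dose: the 445 members, the 158 spans removed in the VCaP step and the 873 spans listed from the lowest LNCaP dose on. Points are libraries and lines their means. At 0.06 nM members are at 7.19% to 15.1%.

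Single members were compared between VCaP groups by their percentile rank, which is 100 for the strongest entry of a shortened list and 0 where none overlaps. Only spans listed in at least 3 of the 15 VCaP libraries were tested, 64260 in all, and 76 of the 445 members were among them. Since a member could pass that filter through the groups where it is high, no share of the 76 is read as a result. Between 0.06 nM and 0.01 nM, limma called 0 members and 0 of all spans (0% higher and 0% lower). With the replicate block it called 1 member, higher at 0.06 nM, and 312 of all spans. The smallest p among members belonged to the VWC2L span at chr2:214549876-214550181, near a gene for a secreted protein with a von Willebrand factor C domain. Its percentile was 67.7, 74.3 and 69.8 at 0.06 nM, against 31.8, 0 and 0 at 0.01 nM, a difference of 60.0 points (limma adjusted p = 0.0841). The span was picked by its smallest p in this same contrast, so nothing is read from the gap between its groups. At the CMC1 span the difference was 52.2 points (limma adjusted p = 0.151).

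The VCaP vehicle lists took part in the rule, so members at 0.06 nM and with vehicle are set side by side as values with no p. The fit over all 64260 spans called 2.49% higher and 0.232% lower at 0.06 nM, and 8 members, all higher, were among them. Nothing is read from that count. The spans named next were picked by the smallest p among members called in this same contrast, so nothing is read from their differences. Vehicle replicates 1 and 2 were the shallowest of the series, with background pileups of 1.14 and 1.09, against 2.05 to 2.69 at 0.06 nM. The part of depth in these values was not tested.
SLC12A2, which encodes a sodium, potassium and chloride cotransporter, had a member at chr5:128046557-128046913 that ranked 70.7, 89.3 and 76.9 at 0.06 nM, against 0, 3.78 and 20.0 with vehicle, a difference of 71.0 points. The VWC2L span ranked 67.7, 74.3 and 69.8 at 0.06 nM, against 0 in all 3 vehicle libraries, a difference of 70.6 points. The vehicle values were the lower ones at both spans. HBS1L, which encodes a ribosome rescue factor, had a member at chr6:135033274-135033531 that ranked 71.9, 74.3 and 77.8 at 0.06 nM, against 4.67, 0 and 9.25 with vehicle, a difference of 70.05 points. PARD3, a cell polarity scaffold gene, had one at chr10:34633250-34633718 that ranked 94.6, 92.9 and 93.4 at 0.06 nM, against 77.5, 78.1 and 81.3 with vehicle, a difference of 14.7 points. SLC12A2, HBS1L and PARD3 were listed in all 3 VCaP 10 nM libraries and so stayed members through their vehicle entries.

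Some members were thus open in VCaP without added androgen. ZNF808, a zinc finger gene, held a member at chr19:52558805-52559289 that was listed in all 15 VCaP libraries, at percentile 86.9, 89.7 and 95.7 at 0.06 nM, against 64.7, 53.9 and 77.6 with vehicle. In LNCaP its −log10 p at 10 nM was 31.5, 37.4 and 52.7. PARD3 and a span at chr8:83698092-83698656 with no protein-coding gene within 100 kb were likewise listed in all 15 VCaP libraries. The CEP44 span was listed in 14 of 15 VCaP libraries, with a percentile of 90.3, 82.3 and 89.6 at 0.06 nM, against 73.7, 0 and 68.6 with vehicle. Its values at 0.01 nM were 77.3, 74.3 and 72.8. SPOCK3 was listed in 8 of the 9 VCaP low-dose libraries. At the other extreme, the VAC14, PCDH15 and AP3B1 members and the HPGD and MET members had no entry in any VCaP library.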

How the data were processed

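Peaks were called separately for each of the 30 libraries. Per the submitters' processing notes, deepTools 3.5.1, MACS2 2.2.7.1, BWA 0.7.17 and Trimmomatic 0.39 were used on GRCh38 (hg38), with no role or order given. The deposited lists hold the authors' fold enrichment (a ratio to local background), −log10 p-value, −log10 q-value, and a score per entry, with a summit offset. They hold no read counts, so depth is unknown beyond the pileup solved from fold enrichment and −log10 p, and no counting interval is given. A tolerance of 0.05 defined a whole solved pileup, and 100% of solved entries were whole.

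The members and gene lists were chosen with earlier results of these data known. Nothing says whether replicates were separate cultures, so p-values measure only the spread between these libraries, which may be technical. Spans on chromosomes 1 to 22 and X were overlapped by at least 1 base. A member's −log10 p in a library is that of its strongest overlapping entry. Percentile ranks used lists shortened to the shortest of the line, 134750 entries in LNCaP and 104726 in VCaP. Gene bodies, starts and sequences came from RefSeq. Distances to bodies and starts used protein-coding genes only. The start table gives several starts for some genes and 62.3% of its starts equal an end of the gene table. Percentile ranks were tested with limma 3.58.1 in R 4.3.3 (trend, robust, all 15 VCaP libraries, Benjamini-Hochberg over 64260 spans, called at adjusted p under 0.05), tested on simulated data first. Exact permutation tests ran in Python 3.11.15 with scipy 1.17.1.

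Named are the 12 members of highest mean rank, the 6 genes with most members, up to 3 genes per list, up to 5 members per VCaP contrast and direction (for 0.06 against 0.01 nM, with none called, the 3 of smallest p, chosen after their values were seen), the 5 listed in most VCaP low-dose libraries, and those at the rule's limits. VCaP replicate numbers deviated together between 0.06 and 0.01 nM (r = 0.195, 0.207 and 0.149) and were taken as pairing there, as a hint from the data. Between 0.06 nM and vehicle (0.0964, 0.134 and 0.0858) they were not. Alternatives changed the list length, overlap, strength threshold, ranking, filters, block and libraries. No sequence under most members was used here. Some members, lists and motifs that these rules name are not reported here.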

Additional observations from a re-analysis of the deposited data

How the results depend on the processing

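The number of LNCaP spans listed only at 10 nM (445) was 7 with the 50000 strongest entries in place of 100000 and 806 when an overlap had to cover 50% of the span. It was 1776 with only the 100000 strongest entries of the vehicle and low-dose lists and 287 with spans of at least 300 bp, an alternative chosen after seeing the data. The direction of the 7, the 1776 and the 287 follows from how these alternatives are built. The overlap of 50% applied to both the required and the forbidden entries, so its direction was not fixed. Leaving out 1 LNCaP library gave 445 to 732. Spans of 10 nM replicate 4 or 5 gave 435 and 439. For the VCaP share over the 9 low-dose libraries, r (0.733, exact permutation, not past the adjusted threshold) passed with all entries as deposited (0.845), relative to the other spans (0.807) and with the replicate block (0.931). The cause was not tested. It was 0.663 to 0.831 leaving out 1 library, none passing (adjusted exact permutation p of 0.05 to 0.264). Without the libraries numbered 2, left out after seeing the data, it was 0.938. For 0.06 against 0.01 nM, limma called 0 members, 1 with the replicate block and 1 with all entries as deposited (364 spans of all), and 0 leaving out each library in turn. For 0.06 nM against vehicle, where the vehicle lists entered the rule and no call is read as a result, the 8 calls became 13 with all entries, 4 with an overlap of 50%, 0 with −log10 q of at least 5, 0 with listed or not as the value and 0 with only the 2 groups fitted, which also left fewer spans tested (54113, against 64260) and 40 members in place of 76. Leaving out 1 library gave 3 to 8 and the replicate block 10. The cause of these changes was not tested. An absent entry means only a signal below the list's limit, which differs with depth between libraries.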
